A study of Homo sapiens with 6 samples.

Results

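Levels of 10 genes for restriction factors, the proteins with which a cell blocks steps of viral infection, were described across 3 human cell lines. The genes were taken by symbol: IFITM1, IFITM2 and IFITM3, APOBEC3B, APOBEC3C, APOBEC3D, APOBEC3F and APOBEC3G, SAMHD1 and BST2. They are 10 of the 23340 genes kept from the deposited tables, and all 10 entered the tests. RNA was sequenced from HT-29, MDA-MB-436 and MCF10A cells with 2 libraries per line, 1 labelled 25M reads and 1 deeper. HT-29 is a colorectal adenocarcinoma line, kept in McCoy's 5A with FBS at 10% and given 200 U per ml of IFN-γ for 24 hours. HT-29 cells without IFN-γ are not analysed here, so no effect of IFN-γ within a line was measured. MDA-MB-436 is a breast adenocarcinoma line, kept in L-15 with FBS at 10% and no added CO2. MCF10A is a mammary epithelial line, grown in DMEM/F12 with 5% horse serum, 20 ng per ml EGF, 500 ng per ml hydrocortisone, 100 ng per ml cholera toxin and 10 µg per ml insulin. Line, medium and treatment thus differ together and cannot be told apart. Whether the 2 libraries of a line stem from separate cultures is not stated, and p-values therefore measure only how far these libraries spread, and that spread may be technical.

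The IFITM proteins are small membrane proteins that hinder the fusion of enveloped viruses with the cell. IFITM1 sits mainly at the cell surface, and IFITM2 and IFITM3 mainly in endosomes. The APOBEC3 enzymes deaminate cytosines in single-stranded DNA, among them those of newly copied retroviral DNA. SAMHD1 breaks down deoxynucleoside triphosphates, which lowers the pool that a viral polymerase can use, and BST2, also called tetherin, holds budding particles at the cell surface. Many of these genes are known to be induced by interferons, whose signals reach promoters through STAT and IRF factors.

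The labels were checked first, and for HT-29 and MDA-MB-436 they went against the data. KRT20, an intestinal keratin, had normalised counts of 0 and 0.547 in both libraries that carry the label of HT-29 with IFN-γ, against 29900 and 30880 under the MDA-MB-436 label. VIL1, the brush border protein villin, was at 0 in both HT-29-labelled libraries and at 2055 and 2198 in the MDA-MB-436-labelled libraries. VIM, the mesenchymal filament vimentin, was at 36599 and 35267 in the HT-29-labelled libraries, against 16.5 and 7.39 in the MDA-MB-436-labelled libraries. The summed level of 5 intestinal markers was 3.00 and 5.47 in the HT-29-labelled libraries, 63812 and 67208 in the MDA-MB-436-labelled libraries, and 1.87 and 3.93 in MCF10A. All samples were kept under their labels and are called the HT-29-labelled libraries, which carry the IFN-γ label, and the MDA-MB-436-labelled libraries. Every direction given for these lines holds for the libraries as labelled. Whether the HT-29 and MDA-MB-436 labels were exchanged was not tested. If they were, the values given for the MDA-MB-436-labelled libraries are those of HT-29 cells with IFN-γ, and those given for the HT-29-labelled libraries are those of MDA-MB-436 cells. The intestinal markers KRT20, VIL1, CDX2, LGALS4 and CDH17 were thus high only in the MDA-MB-436-labelled libraries, which carry no IFN-γ label.

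Leukocytes are rich in several of these proteins, and 3 of their 12 markers reached a mean normalised count of 10 in a line. The 12 leukocyte markers summed to 551 and 554 in the HT-29-labelled libraries, 128 and 119 in the MDA-MB-436-labelled libraries, and 592 and 586 in MCF10A. CD14 was the highest marker in each line. ITGAM averaged 168 in the HT-29-labelled libraries, 27.4 in the MDA-MB-436-labelled libraries and 8.61 in MCF10A, and CSF1R 6.69, 3.29 and 81.7 in the same order. The other markers averaged under 10 in every line, and CD3D and CD2 were at 0 in every library. Fewer cells of a type and less RNA per cell cannot be told apart in such bulk samples, and the part of these markers in the levels below was not tested.

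Promoters are shown for the 4 genes that have an entry in the RefSeq promoter table (GRCh38.p14), because elements known to answer to interferon lie close to the starts of such genes. IFITM2, APOBEC3B, APOBEC3C, APOBEC3D, APOBEC3F and APOBEC3G are only named. Each line gives 150 bases before to 10 after the annotated start, 5′ to 3′ on the gene's strand. Capitals mark matches to GAAANNGAAA, the core of the interferon-stimulated response element (ISRE) bound by IRF factors. The windows are chr11:313890-314049 on the plus strand for IFITM1, chr11:320851-321010 on the minus strand for IFITM3, chr20:36951699-36951858 on the minus strand for SAMHD1 and chr19:17405621-17405780 on the minus strand for BST2.
IFITM1: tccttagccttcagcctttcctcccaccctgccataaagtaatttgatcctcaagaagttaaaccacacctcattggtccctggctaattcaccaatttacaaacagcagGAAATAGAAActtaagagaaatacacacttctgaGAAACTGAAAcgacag
IFITM3: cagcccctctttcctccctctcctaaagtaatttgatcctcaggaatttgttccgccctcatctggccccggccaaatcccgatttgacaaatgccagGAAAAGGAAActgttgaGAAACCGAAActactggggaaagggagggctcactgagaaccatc
SAMHD1: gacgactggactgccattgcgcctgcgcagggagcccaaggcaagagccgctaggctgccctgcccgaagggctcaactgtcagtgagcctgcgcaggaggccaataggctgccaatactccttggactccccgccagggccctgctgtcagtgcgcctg
BST2: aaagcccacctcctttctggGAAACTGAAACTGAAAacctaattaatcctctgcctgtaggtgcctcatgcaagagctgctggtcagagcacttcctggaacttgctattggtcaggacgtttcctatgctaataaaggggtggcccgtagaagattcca

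Both strands of the 300 bases from 250 before to 50 after each start were searched. IFITM1 held 2 matches to the ISRE core, which began 40 and 6 bases before the start, the second running across it. IFITM3 held 2, which began 52 and 35 bases before the start. BST2 held 2 that share 4 bases in the run GAAACTGAAACTGAAA, beginning 130 and 124 bases before the start. SAMHD1 held none, which says only that these letters are not in this window. The ISRE core was found in 4.38% of the 27305 genes with a promoter entry, and in 12 of 23 (52.2%) of the other restriction factor genes listed for this comparison. Among listed genes of the interferon pathway it was found in 2 of 12 (16.7%). These shares count a gene if any of its windows holds the motif, while the genes printed above were searched in their first window. The second motif, TTCNNNGAA, is the gamma-activated site (GAS), an element known to answer to IFN-γ. It was found once for IFITM1, 12 bases before the start and overlapping the second ISRE core. BST2 held 2, which began 136 and 58 bases before the start, the first overlapping an ISRE core. IFITM3 and SAMHD1 held none. A GAS was found in 9.38% of the 27305 genes with a promoter entry. It was found in 4 of 23 (17.4%) of the other restriction factor genes and in 2 of 12 (16.7%) of those of the interferon pathway. A match is a description of the sequence and not a measured binding site.

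In every one of the 10 genes the 3 lines lay apart, with no overlap between the libraries of any pair of lines. The share of all genes that lay apart in this way was not counted, so it is not given as a trait of these genes. For APOBEC3G, the HT-29-labelled libraries and MCF10A lay apart on 1 pooled read against 14. Differences were tested with limma on log2(normalised count + 1). To pass, a gene needed an adjusted p (Benjamini-Hochberg) under 0.05 together with a log2 fold change of 1 or more in either direction. Levels below are normalised counts, and folds in words are ratios of pooled reads scaled for depth, with 95% counting intervals.

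Between the HT-29-labelled libraries and MCF10A the test was passed by 8 of the 10 genes, where 46.5% of the 15638 genes tested passed. They were higher for 5 and lower for 3, against 28.4% higher and 18.1% lower over all genes. BST2 and IFITM2 stood at the ends of this comparison, with log2 fold changes of 7.74 and -9.97. With libraries scaled by their totals, 6 of the 10 genes were higher and 2 lower, and the split over all genes was 5376 higher and 1994 lower in place of 4442 and 2823. Between the MDA-MB-436-labelled libraries and MCF10A, 9 of the 10 genes passed, where 49.2% of all genes did. Of these, 8 were higher and 1, APOBEC3C, lower, against 25.6% higher and 23.7% lower over all genes. For HT-29 over MDA-MB-436 as labelled, 8 of the 10 genes passed, where 53.4% of all genes did. APOBEC3C and APOBEC3D were higher and 6 genes lower, against 29.9% higher and 23.5% lower over all genes. In that comparison the split over all genes was 4675 higher and 3675 lower, and 5617 and 2822 with libraries scaled by their totals. The median log2 fold change of the 10 genes was 0.88 for the HT-29-labelled libraries over MCF10A, 2.62 for the MDA-MB-436-labelled libraries over MCF10A and -1.22 for HT-29 over MDA-MB-436 as labelled. The medians over all genes were 0.13, 0.00 and 0.09 in the same order. APOBEC3G reached 10 normalised counts, the filter on low values, in the MDA-MB-436-labelled libraries alone, so its entry into the test already rested on a difference. Without it, 7 of 9 genes passed for the HT-29-labelled libraries over MCF10A (5 higher and 2 lower), 8 of 9 for the MDA-MB-436-labelled libraries over MCF10A (7 higher and 1 lower) and 7 of 9 for HT-29 over MDA-MB-436 as labelled (2 higher and 5 lower). These comparisons share libraries, so their values stand side by side and are not independent of each other.

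**Figure D1:**
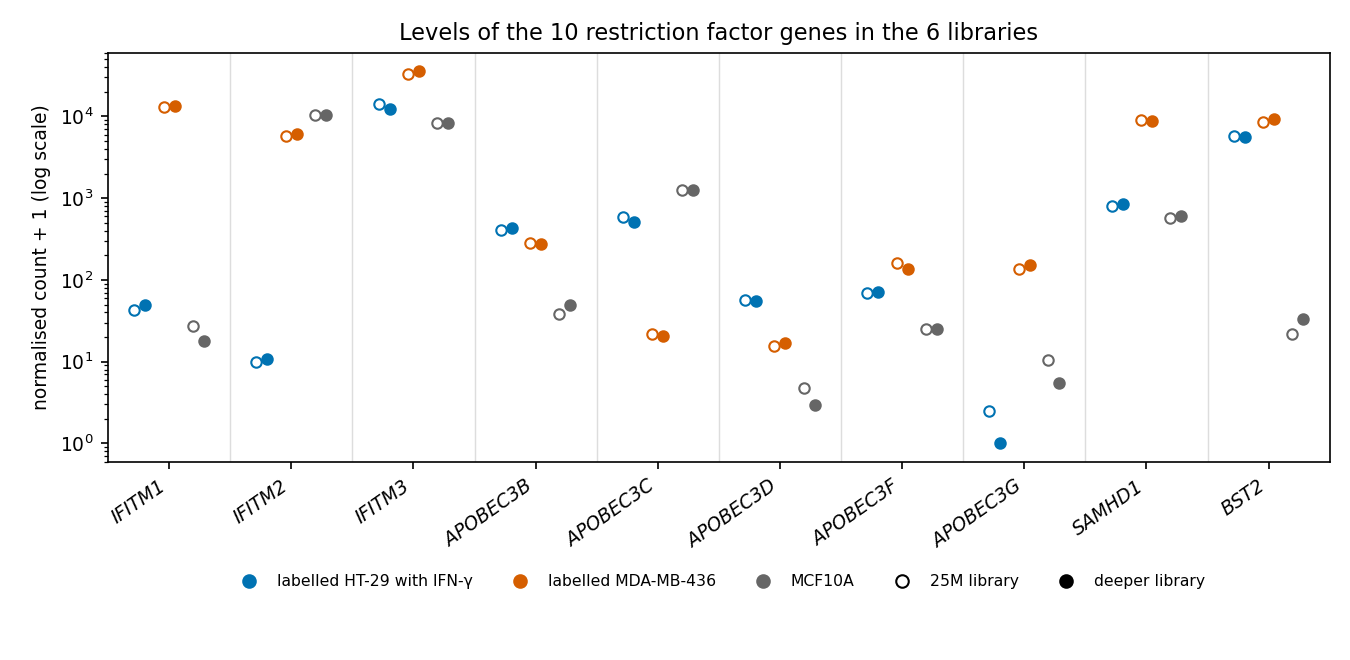
Normalised count + 1 on a log axis for each of the 10 genes in the 6 libraries, with HT-29-labelled libraries (IFN-γ) in blue, MDA-MB-436-labelled ones in orange and MCF10A in grey; open points are 25M libraries and filled points the deeper ones. The MDA-MB-436-labelled libraries are highest for IFITM1, IFITM3, APOBEC3F, APOBEC3G, SAMHD1 and BST2, and MCF10A is highest for IFITM2 and APOBEC3C.

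**Figure D2:**
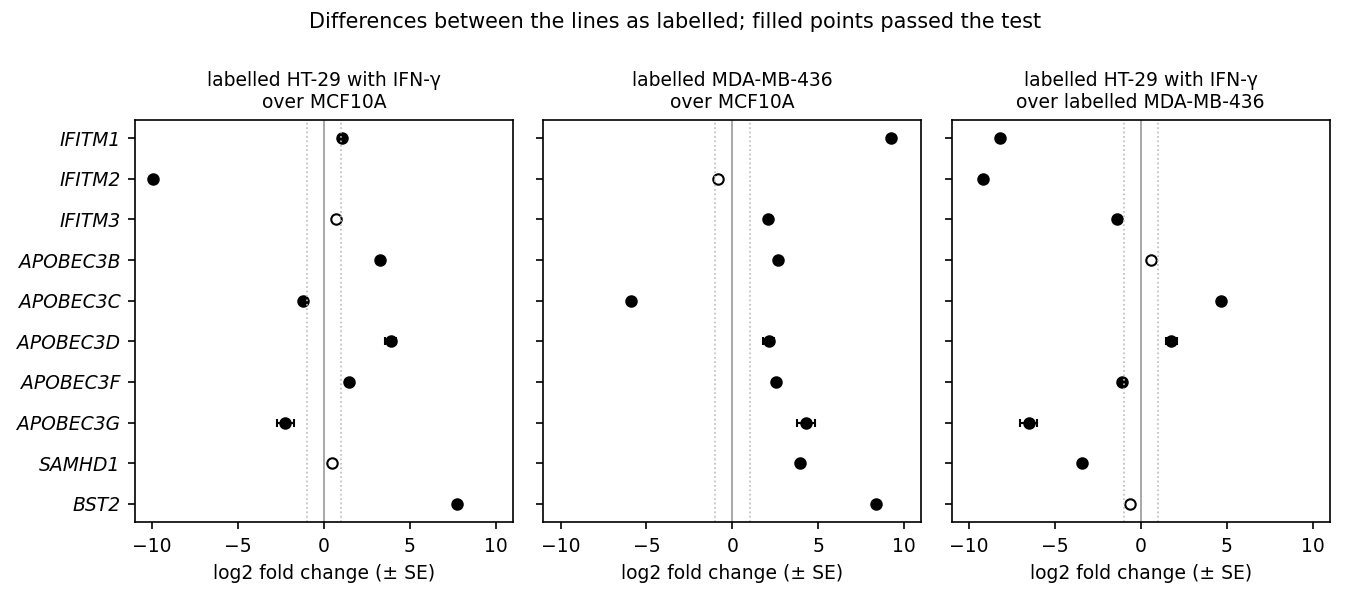
Log2 fold change with its standard error from limma for each gene in the 3 comparisons, with dotted lines at the log2 threshold of 1 in each direction; filled points passed the test and open points did not. The values run from -9.97 for IFITM2 in the HT-29-labelled libraries over MCF10A to 9.23 for IFITM1 in the MDA-MB-436-labelled libraries over MCF10A.

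IFITM1 was abundant in 1 of the 3 lines. Its counts were 42.0 and 48.2 in the HT-29-labelled libraries, 13000.3 and 13317 in the MDA-MB-436-labelled libraries and 26.2 and 16.7 in MCF10A. Only the MDA-MB-436-labelled libraries were high, and those of the other lines rested on 116 and 48 pooled reads. IFITM1 was 709-fold higher in the MDA-MB-436-labelled libraries than in MCF10A (535 to 962), and its log2 fold change was 9.23 (SE 0.19, adjusted p = 2.81e-09). It was 285-fold lower in the HT-29-labelled libraries than in the MDA-MB-436-labelled libraries (237 to 345; adjusted p = 5.04e-09). Between the HT-29-labelled libraries and MCF10A the log2 fold change was 1.07 (SE 0.19, adjusted p = 9.80e-04), close to the threshold. Without the deeper HT-29-labelled library it was 0.97, and without the deeper MCF10A library 0.76, neither of which passed.

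IFITM2, which lies beside IFITM1 in the cluster on chromosome 11, had another order. There were 9.0 and 9.85 normalised counts in the HT-29-labelled libraries, which is 24 pooled reads, 5764 and 6069 in the MDA-MB-436-labelled libraries and 10550.1 and 10300.3 in MCF10A. MCF10A was the highest line and the HT-29-labelled libraries were near 0. IFITM2 was 1076-fold lower in the HT-29-labelled libraries than in MCF10A (723 to 1679), and its log2 fold change was -9.97 (SE 0.057, adjusted p = 2.54e-11). Against the MDA-MB-436-labelled libraries it was 623-fold lower (419 to 973; adjusted p = 1.92e-11). The MDA-MB-436-labelled libraries stood at a log2 fold change of -0.82 over MCF10A (SE 0.057, adjusted p = 3.01e-06), under the fold threshold.

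IFITM3 was abundant in all 3 lines. Its normalised counts were 14230 and 12501 in the HT-29-labelled libraries, 33200 and 35572 in the MDA-MB-436-labelled libraries and 8318 and 8221 in MCF10A. The MDA-MB-436-labelled libraries were the highest, and MCF10A the lowest. IFITM3 was 4.25-fold higher in the MDA-MB-436-labelled libraries than in MCF10A (4.19 to 4.32), with a log2 fold change of 2.05 (adjusted p = 1.57e-08). It was 2.70-fold lower in the HT-29-labelled libraries than in the MDA-MB-436-labelled libraries (2.67 to 2.74; adjusted p = 1.54e-07). The log2 fold change of the HT-29-labelled libraries over MCF10A was 0.69 (SE 0.059, adjusted p = 1.18e-05) and did not pass, but was 1.0 and passed with libraries scaled by their totals. IFITM3 overlaps the antisense gene IFITM3-AS1, whose reads cannot be told apart from it where strand was not used in counting.

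IFITM2 and IFITM3 are close copies, and 50-bp reads could be counted for the wrong one. In the HT-29-labelled libraries, IFITM2 reads came to 0.0633% and 0.0788% of IFITM3 reads. In the MDA-MB-436-labelled libraries they came to 17.4% and 17.1%, and in MCF10A to 127% and 125%. Any IFITM3 reads counted for IFITM2 in the HT-29-labelled libraries lie within those 24 reads.

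Per transcript length, which allows genes to be compared, the IFITM family had a different make-up in each line. IFITM3 held 99.7% and 99.6% of the summed RPKM of the 3 IFITM genes in the HT-29-labelled libraries. Under the MDA-MB-436 label, IFITM3 held a mean of 66.0%, IFITM1 23.6% and IFITM2 10.4%. In MCF10A, IFITM2 held 53.5%, IFITM3 46.4% and IFITM1 0.112%. The summed RPKM was 775 and 687 in the HT-29-labelled libraries, 2206 and 2313 in the MDA-MB-436-labelled libraries and 789 and 777 in MCF10A. On this scale, the sums of the HT-29-labelled libraries and of MCF10A lay near each other. Only 1 gene made up nearly all of the first, and a pair of genes nearly all of the other. RPKM values are scaled by library totals, unlike the normalised counts. Over all genes, scaling by totals raised the log2 fold changes of the HT-29-labelled libraries over MCF10A by a median of 0.31.

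**Figure D3:**
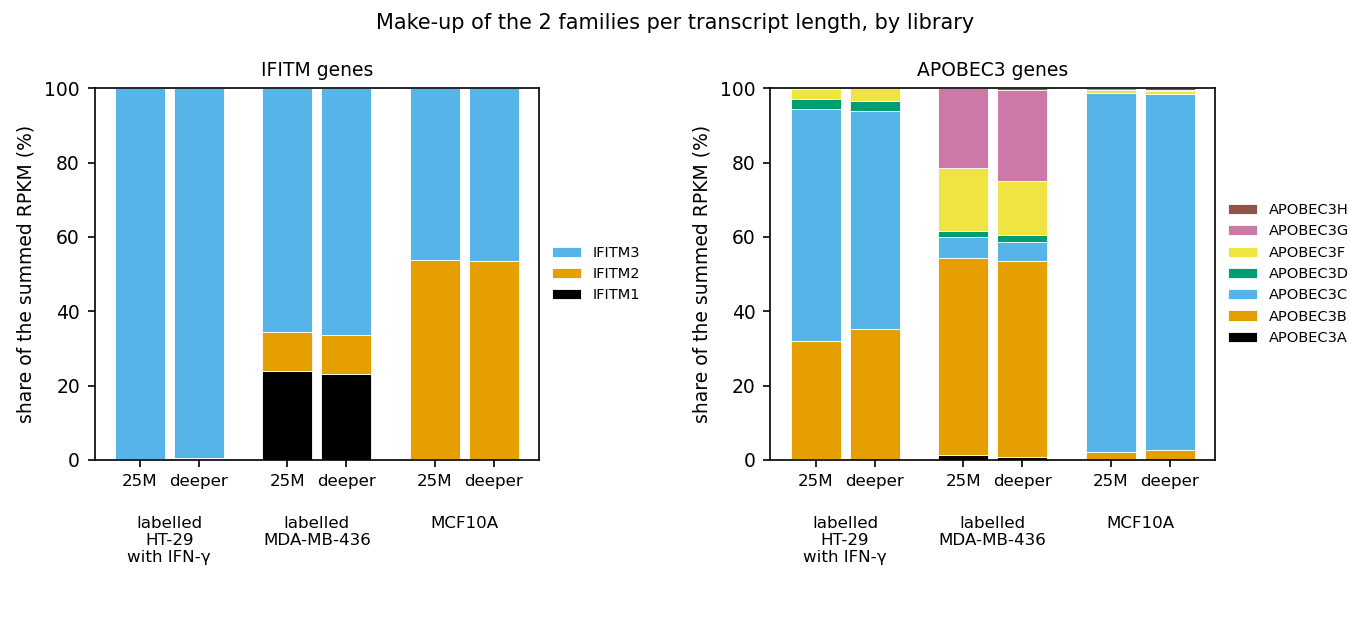
Share of the summed RPKM held by each IFITM gene (left) and each APOBEC3 gene (right) in each of the 6 libraries, with the HT-29-labelled libraries (IFN-γ) first, then the MDA-MB-436-labelled libraries and MCF10A. IFITM3 holds a mean of 99.6%, 66.0% and 46.4% of its family in that order, and APOBEC3C 60.5%, 5.31% and 96.2% of its own.

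Among the APOBEC3 genes, APOBEC3B encodes the family member that resides in the nucleus. It had 410 and 428 normalised counts in the HT-29-labelled libraries, 280 and 274 in the MDA-MB-436-labelled libraries and 37.5 and 48.1 in MCF10A. Both cancer lines were above MCF10A. APOBEC3B was 9.22-fold higher in the HT-29-labelled libraries than in MCF10A (7.61 to 11.2), and its log2 fold change was 3.27 (SE 0.14, adjusted p = 1.61e-07). It was 6.0-fold higher in the MDA-MB-436-labelled libraries (4.92 to 7.38; adjusted p = 4.21e-07). The log2 fold change of the HT-29-labelled libraries over the MDA-MB-436-labelled libraries was 0.59 (SE 0.14, adjusted p = 0.00370), under the fold threshold. APOBEC3B overlaps the antisense gene APOBEC3B-AS1, so its reads are uncertain in the same way as those of IFITM3.

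APOBEC3C, the neighbour of APOBEC3B on chromosome 22 and an enzyme with a single deaminase domain, differed from it. Its normalised counts were 582 and 514 in the HT-29-labelled libraries, 20.6 and 19.7 in the MDA-MB-436-labelled libraries and 1268 and 1247 in MCF10A. It was the one gene of the 10 that was lowest in the MDA-MB-436-labelled libraries. APOBEC3C was 62.8-fold lower in the MDA-MB-436-labelled libraries than in MCF10A (46.4 to 87.3), and its log2 fold change was -5.89 (SE 0.096, adjusted p = 8.74e-10). It was 26.7-fold higher in the HT-29-labelled libraries than in the MDA-MB-436-labelled libraries (19.7 to 37.3; adjusted p = 2.61e-09). The HT-29-labelled libraries were lower than MCF10A, with a log2 fold change of -1.20 (adjusted p = 7.71e-06), which was -0.89 and did not pass with libraries scaled by their totals.

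APOBEC3D and APOBEC3F encode double-domain enzymes that can be packaged into HIV particles and are targets of the viral protein Vif. APOBEC3D had 55.5 and 53.6 normalised counts in the HT-29-labelled libraries, 14.4 and 16.0 in the MDA-MB-436-labelled libraries and 3.75 and 1.96 in MCF10A, the last from 6 reads. APOBEC3F had 67.5 and 71.1 in the HT-29-labelled libraries, 160.6 and 135.5 in the MDA-MB-436-labelled libraries and 24.3 and 24.1 in MCF10A. Both genes were lowest in MCF10A, while APOBEC3D was highest in the HT-29-labelled libraries and APOBEC3F in the MDA-MB-436-labelled libraries. APOBEC3D was 23.2-fold higher in the HT-29-labelled libraries than in MCF10A (10.4 to 64.3), and its log2 fold change was 3.89 (SE 0.32, adjusted p = 9.52e-06). In the MDA-MB-436-labelled libraries it was 6.70-fold higher than in MCF10A (2.77 to 19.6; adjusted p = 3.90e-04). It was 3.46-fold higher in the HT-29-labelled libraries than in the MDA-MB-436-labelled libraries (2.35 to 5.23; adjusted p = 0.0010). APOBEC3F was 2.91-fold higher in the HT-29-labelled libraries than in MCF10A (2.17 to 3.95; adjusted p = 7.51e-05). Under the MDA-MB-436 label it was 5.86-fold higher than in MCF10A (4.44 to 7.83; adjusted p = 2.29e-06). Its log2 fold change of -1.08 for the HT-29-labelled libraries over the MDA-MB-436-labelled libraries (adjusted p = 4.63e-04) was -0.96 without the 25M MDA-MB-436-labelled library and -0.76 with libraries scaled by their totals, and then did not pass.

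APOBEC3G, the family member best known for restricting HIV that lacks Vif, passed the filter on low values through the MDA-MB-436-labelled libraries alone. It had 1.5 and 0 normalised counts in the HT-29-labelled libraries, which is 1 read, 136 and 153 in the MDA-MB-436-labelled libraries and 9.36 and 4.42 in MCF10A, which is 14 reads. The MDA-MB-436-labelled libraries were high and those of the other lines at or near 0. Its values are therefore given as a description, with no test. APOBEC3G was 27.3-fold higher in the MDA-MB-436-labelled libraries than in MCF10A (16.0 to 50.6). It was 371-fold lower in the HT-29-labelled libraries than in the MDA-MB-436-labelled libraries, with an interval of 66.2 to 14711 because it rests on 1 read. Between the HT-29-labelled libraries and MCF10A neither line reached the filter, and 1 read stood against 14.

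Per transcript length, APOBEC3C and APOBEC3B held most of the family's RNA in the HT-29-labelled libraries, with mean shares of the summed RPKM of 60.5% and 33.5%. In the MDA-MB-436-labelled libraries, APOBEC3B held 52.8%, APOBEC3G 23.0%, APOBEC3F 15.7% and APOBEC3C 5.31%. In MCF10A, APOBEC3C held 96.2% and APOBEC3B 2.37%. The mean summed RPKM of the 7 APOBEC3 genes was 29.7 in the HT-29-labelled libraries, 9.93 in the MDA-MB-436-labelled libraries and 34.6 in MCF10A. The lowest sum stood in the MDA-MB-436-labelled libraries, where APOBEC3F and APOBEC3G were at their highest and APOBEC3C at its lowest. The deposited RPKM values of APOBEC3C imply a length of 1105 bases, against 2818 bases for its GENCODE v29 transcript, and a greater length would lower its shares.

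The rest of both families was at few reads, apart from IFITM10. APOBEC3A had 1 pooled read in the HT-29-labelled libraries, 9 in the MDA-MB-436-labelled libraries and 1 in MCF10A, and APOBEC3H had 1, 3 and 13 in the same order. APOBEC4 had at most 2 in any line. APOBEC1, the intestinal enzyme that edits apolipoprotein B RNA, had 23 reads in the MDA-MB-436-labelled libraries and 0 in the others. With 3 reads over the group as the floor, it was at least 9.34-fold higher there than in MCF10A. APOBEC2 averaged 4.24, 13.5 and 6.49 normalised counts in that order. APOBEC1 and APOBEC2 passed the filter on low values through the MDA-MB-436-labelled libraries alone, so no test is given for them. IFITM5, known from bone, had 1, 5 and 0 reads, and the pseudogene IFITM4P 2, 10 and 6. IFITM10 averaged 59.9 normalised counts in the HT-29-labelled libraries, 183 in the MDA-MB-436-labelled libraries and 124 in MCF10A. It was lower in the HT-29-labelled libraries than in the MDA-MB-436-labelled libraries (log2 fold change -1.61, adjusted p = 1.71e-04). Its value of -1.02 over MCF10A (adjusted p = 0.00257) was -0.81 without the deeper HT-29-labelled library, -0.76 without the 25M MCF10A library and -0.72 with libraries scaled by their totals, and then did not pass.

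SAMHD1 had 812 and 854 normalised counts in the HT-29-labelled libraries, 9031 and 8803 in the MDA-MB-436-labelled libraries and 575 and 612 in MCF10A. The MDA-MB-436-labelled libraries stood far above the other lines, which lay close together. SAMHD1 was 14.6-fold higher in them than in MCF10A (13.9 to 15.4), and its log2 fold change was 3.91 (SE 0.046, adjusted p = 2.22e-10). It was 10.5-fold lower in the HT-29-labelled libraries than in the MDA-MB-436-labelled libraries (10.04 to 11; adjusted p = 3.99e-10). The log2 fold change of the HT-29-labelled libraries over MCF10A was 0.49 (adjusted p = 2.16e-05), under the fold threshold. SAMHD1 overlaps the gene TLDC2 in RefSeq, so part of its reads may be shared.

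Genes that set the deoxynucleotide pool on which SAMHD1 acts, or belong to the cyclin and kinase complexes that phosphorylate it, were compared as a list of 14. Of 14 tested, 0 were higher and 3 lower by limma in the HT-29-labelled libraries than in MCF10A, against 28.4% and 18.1% of all genes, at a median log2 fold change of -0.32. At an unadjusted p under 0.05 with no fold minimum, 5 were higher, and edgeR and DESeq2 also passed 0 as higher. The cyclin gene CCNA2, at -0.954 in limma, passed as lower by edgeR (-1.034), by limma-voom (-1.034) and with TMM scaling (-1.043). CDKN1A, the inhibitor p21, was at -2.30, RRM2B, a small subunit of ribonucleotide reductase, at -2.07 and RRM1, its large subunit, at -1.10. Under the MDA-MB-436 label, 0 were higher and 4 lower than in MCF10A, against 25.6% and 23.7% of all genes, at a median of -0.82. At an unadjusted p under 0.05, 1 was higher there, and edgeR and DESeq2 again passed 0. The lower ones were led by RRM2B at -1.95, RRM1 at -1.62 and the thymidylate synthase gene TYMS at -1.20. For HT-29 over MDA-MB-436 as labelled, 3 were higher and 1 lower, against 29.9% and 23.5% of all genes, at a median of 0.46. RRM2, the cell-cycle-bound small subunit, stood at 1.54, the mitochondrial kinase gene DGUOK at 1.06, CDK1 at 1.06 and CDKN1A at -1.53. With libraries scaled by their totals, RRM1 no longer passed for the HT-29-labelled libraries over MCF10A (-0.78) while RRM2 did (1.13), a split of 1 higher and 2 lower. For HT-29 over MDA-MB-436 as labelled that scaling gave 5 higher and 1 lower, with DCK (1.06) and TYMS (1.25) added. Tested against a fold of 2 (treat), 1 was higher and 1 lower there, with adjusted p of 0.170 for DGUOK and 0.13 for CDK1.

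BST2 had 5801 and 5572 normalised counts in the HT-29-labelled libraries, 8541 and 9202 in the MDA-MB-436-labelled libraries and 20.6 and 31.9 in MCF10A. Both cancer lines were high, and MCF10A had 76 pooled reads. BST2 was 191-fold higher in the HT-29-labelled libraries than in MCF10A (152 to 242), and its log2 fold change was 7.74 (SE 0.18, adjusted p = 5.80e-08). It was 306-fold higher in the MDA-MB-436-labelled libraries (244 to 389), with a log2 fold change of 8.38 (adjusted p = 2.99e-08). The log2 fold change of the HT-29-labelled libraries over the MDA-MB-436-labelled libraries was -0.64 (SE 0.18, adjusted p = 0.0140), under the fold threshold. The promoters printed above for BST2, IFITM1 and IFITM3 each hold 2 ISRE cores, and the 3 genes differed in their levels over the lines. In MCF10A, IFITM3 was abundant while BST2 and IFITM1 were low.

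The genes of the interferon pathway were compared as a list of 17, all tested. In the HT-29-labelled libraries, 11 were higher and 1 lower than in MCF10A, against 28.4% and 18.1% of all genes, at a median log2 fold change of 1.52, against a median of 0.13 for all genes. SOCS3, a feedback inhibitor of JAK kinases, stood at 6.61, the ubiquitin-like modifier gene ISG15 at 6.04, IRF9 at 4.90 and the kinase gene TYK2 at -1.19. In the MDA-MB-436-labelled libraries, 13 were higher and 0 lower than in MCF10A by limma, against 25.6% and 23.7% of all genes, at a median of 3.69. At an unadjusted p under 0.05, 3 were lower, and DESeq2 passed 0 and edgeR 1 as lower. That 1 was TYK2, at -0.96 in limma, which also passed there without the deeper MDA-MB-436-labelled library (-1.01). ISG15 stood at 7.87, IRF1 at 7.62 and IRF7 at 6.41. For HT-29 over MDA-MB-436 as labelled, 2 were higher, the receptor genes IFNGR2 at 1.24 and IFNAR1 at 1.07, and 10 lower, led by IRF1 at -5.17, IRF7 at -2.94 and STAT2 at -2.42, where 29.9% of all genes were higher and 23.5% lower. IRF1, a factor known to be induced by IFN-γ through a GAS, averaged 2214 ± 28.3 normalised counts in the HT-29-labelled libraries, 79539 ± 138 in the MDA-MB-436-labelled libraries and 404 ± 14.6 in MCF10A (SD, n = 2 each). The MDA-MB-436-labelled libraries, which like MCF10A carry no IFN-γ label, were thus the highest for IRF1. They were also the highest for 6 of the 10 restriction factors, and the matching share of all genes was not counted. With libraries scaled by their totals, TYK2 no longer passed for the HT-29-labelled libraries over MCF10A (-0.88), while IFNAR1 (1.05) and JAK1 (1.23) passed as higher. That scaling also added IFNAR2 as higher (1.02) for HT-29 over MDA-MB-436 as labelled.

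A list of 34 other restriction factor genes had 33 in the tables, all tested. In the HT-29-labelled libraries, 17 were higher and 5 lower than in MCF10A, where 28.4% of all genes were higher and 18.1% lower, at a median log2 fold change of 1.25. SLFN11, which limits the synthesis of viral proteins, averaged 2801 normalised counts there, 1.03 in the MDA-MB-436-labelled libraries and 1.67 in MCF10A, and its log2 fold change over MCF10A was 10.04. RSAD2, which makes a chain-terminating nucleotide, was at 9.08, and CH25H, which makes an antiviral oxysterol, at 8.60. SLFN11 and CH25H passed the filter on low values through the HT-29-labelled libraries alone, and thus had to differ to be tested. Those lower were led by TRIM22 at -4.94, the RNA-binding IFIT5 at -1.35 and SERINC3, which lowers the infectivity of HIV particles, at -1.25. SERINC3 did not pass with libraries scaled by their totals (-0.94), where the split was 18 higher and 2 lower. Under the MDA-MB-436 label, 26 were higher and 0 lower than in MCF10A by limma, against 25.6% and 23.7% of all genes, at a median of 3.47. At an unadjusted p under 0.05, 1 was lower, and edgeR and DESeq2 passed 0 as lower. GBP5, a GTPase that impairs viral envelope proteins, was at 12.11, and the GTPase genes MX2 and MX1 at 11.74 and 10.81. MX2 had 3 pooled reads in MCF10A, and its ratio was 4520.05 with an interval of 1546 to 21922.

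For HT-29 over MDA-MB-436 as labelled, 3 of the 33 were higher and 19 lower, against 29.9% and 23.5% of all genes, at a median of -1.96. Those higher were SLFN11 at 10.65, CH25H at 8.59 and HERC5, the ligase for ISG15, at 3.04. SLFN11, with 1 read in the MDA-MB-436-labelled libraries (a ratio of 5955 with an interval of 1068 to 235228), and CH25H, with 4, are the genes that passed the filter through the HT-29-labelled libraries alone, which leaves HERC5 of the 3. Those lower were led by TRIM22 at -8.41, MX2 at -5.38 and GBP5 at -4.95. TRIM22 averaged 29.4 normalised counts in the HT-29-labelled libraries, 10229 in the MDA-MB-436-labelled libraries and 922 in MCF10A. As for IFITM2, the HT-29-labelled libraries were the lowest of the 3 lines and those of the other lines high.

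**Figure D4:**
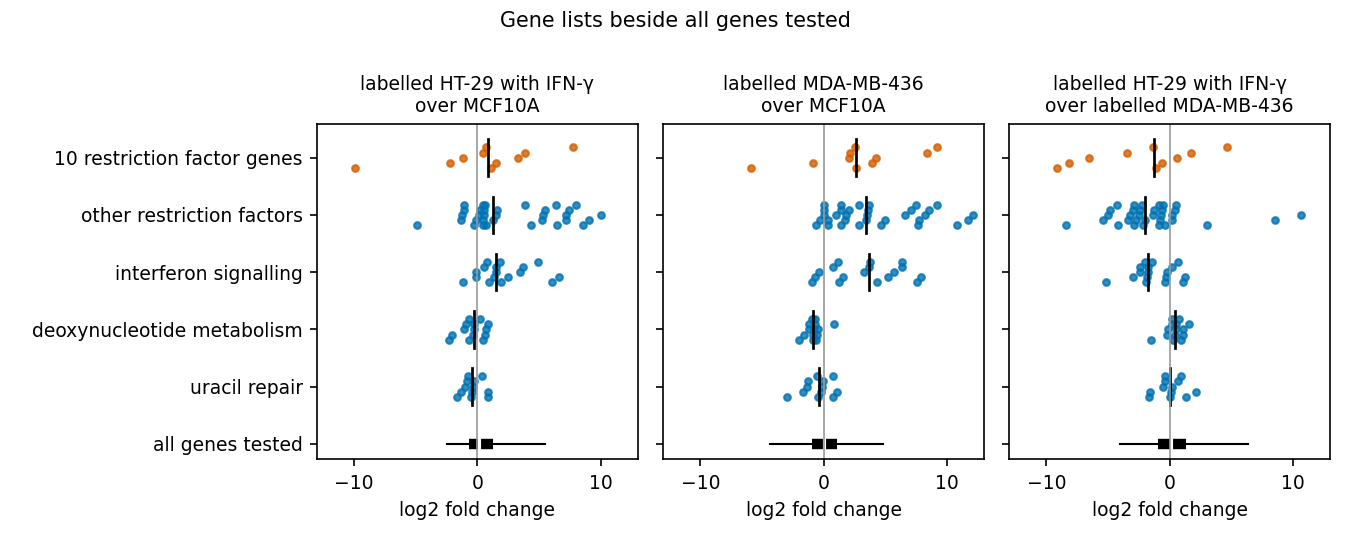
Log2 fold change of each gene of the 10 restriction factors and of 4 gene lists in the 3 comparisons, with the median as a vertical bar; for all genes tested the thick bar spans the middle 50% and the thin line the range between the outer 5% at each end. The median of the other restriction factors is 1.25, 3.47 and -1.96 and that of the interferon genes 1.52, 3.69 and -1.77 in the 3 panels.

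Enzymes that repair the uracils and abasic sites left by cytosine deamination were taken as a list of 13 with 12 tested. In the HT-29-labelled libraries, 0 were higher and 2 lower than in MCF10A by limma, against 28.4% and 18.1% of all genes, LIG3 at -1.64 and the uracil glycosylase gene UNG at -1.31. At an unadjusted p under 0.05, 3 were higher, and edgeR and DESeq2 passed 0 as higher. With libraries scaled by their totals, UNG lay just short of the threshold (-1.0) and the split was 2 higher and 1 lower. POLB, at -0.996 in limma, passed as lower by edgeR (-1.056), by limma-voom (-1.048) and with TMM scaling (-1.085). It stood at -1.02 without the deeper HT-29-labelled library and at -1.05 without the deeper MCF10A library. In the MDA-MB-436-labelled libraries, 1 was higher, the glycosylase gene MBD4 at 1.12, and 4 lower, led by PARP1 at -2.97, the polymerase gene POLB at -1.68 and UNG at -1.34, so that 5 of 12 passed where 49.2% of all genes did. For HT-29 over MDA-MB-436 as labelled, PARP1 at 2.16 and the endonuclease gene APEX2 at 1.36 were higher and MBD4 at -1.67 and LIG3 at -1.60 lower, so that 4 of 12 passed where 53.4% of all genes did. Scaled by totals, the split there was 4 higher and 2 lower. The median log2 fold changes were -0.48, -0.34 and 0.06 in the order of these comparisons.

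For each of the 10 genes, the gene with the most similar pattern was the one at the smallest Euclidean distance over the 6 libraries, on the log2 scale centred on each gene's mean, among the 9672 or 9673 candidate genes. IFITM3 was nearest to AARS at a distance of 0.120, APOBEC3F to ZNF268 at 0.183 and SAMHD1 to CGN at 0.198. BST2 was nearest to IFI44L, an interferon-induced gene, at 0.431. IFI44L averaged 4000.1 normalised counts in the HT-29-labelled libraries, 7925 in the MDA-MB-436-labelled libraries and 21.1 in MCF10A. APOBEC3B was nearest to MUC16 at 0.335, APOBEC3D to CXCL2 at 0.407, IFITM1 to KCNE3 at 0.541 and APOBEC3C to FZD8 at 0.657. The greatest such distances were those of IFITM2 to EVPL, 0.934, and of APOBEC3G to ANO1, 1.07. Within the 10, the closest pair was IFITM3 and APOBEC3F at 0.856. The greatest distances to a nearest member were those of APOBEC3C, 8.12 from APOBEC3D, and of IFITM2, 7.94 from APOBEC3G.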

How the data were processed

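Total RNA was isolated with the RNeasy kit and sequenced as 50-bp paired-end reads on an Illumina HiSeq, per the labels' protocols. The submitters' processing notes name FastQC, STAR 2.2.0, HTSeq and the build hg19, and neither the annotation nor the use of strand is given in the sources used here. Per the file headers, the tables the authors deposited hold a symbol, a normalised count (a signal scaled by 1 factor per library) and an RPKM value in 23368 rows. All values above 0 in the authors' normalised counts were whole multiples of 1 step within 0.001, so whole reads were recovered: 18.4 and 50.2M (HT-29 as labelled), 16.7 and 56.4M (MDA-MB-436 as labelled) and 18.3 and 69.5M (MCF10A), whose deeper library is labelled 100M in its title and 50M in its sample type. The step, not the label, gave these read numbers, and the folds in words were scaled by it. Rows with date-like symbols (28) or repeated names (4) were left out, and 22075 of 23340 names matched RefSeq. RPKM values deposited by the authors are out of register for some genes, and were used only for the IFITM and APOBEC3 genes, for which 1 implied length held in every library.

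limma, with a trended and robust prior, was fitted to log2(normalised count + 1) in all 6 libraries (3 residual degrees of freedom) for 15638 genes with at least 10 in at least 2 libraries, since the deposited unit is a normalised count. The pseudocount understates the change of low genes. Paired libraries differed by a median chi-square over genes of 0.728 (HT-29), 0.687 (MDA-MB-436) and 0.553 (MCF10A), where sampling alone gives 0.455, so each was kept as 1 library. The members and lists were chosen with earlier results of these data known. All 10 members are named, up to 3 passing genes per list, direction and comparison with the largest change, every gene of both families, the nearest flanking genes in the tables and the gene nearest in pattern. edgeR on the recovered reads passed 7365 genes for the HT-29-labelled libraries over MCF10A, 7772 for the MDA-MB-436-labelled libraries over MCF10A and 8405 for HT-29 over MDA-MB-436. DESeq2, limma-voom, pseudocounts of 0.5 and 5, other scalings and filters, and leaving out each library were further alternatives. The fit was tested on simulated data. Intervals cover counting error only, and reads without molecular identifiers are not independent molecules. The work was done in R 4.3.3 with DESeq2 1.42.0, edgeR 4.0.16 and limma 3.58.1. Results for some genes are not reported here.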

Additional observations from a re-analysis of the deposited data

How the results depend on the processing

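Across 19 alternatives, no value of the 10 genes changed sign. Of 187 values per comparison, 178 kept their side of the threshold for the HT-29-labelled libraries over MCF10A, all 187 for the MDA-MB-436-labelled libraries over MCF10A and 184 for HT-29 over MDA-MB-436. With at least 10 CPM required in 2 libraries, APOBEC3D, APOBEC3F and APOBEC3G were not tested, which left 3, 5 and 1 of the 10 genes higher in these comparisons, in the order given, and 2209, 2424 and 2670 of all genes higher. Tested against a fold of 2 (treat), 1 of the 10 genes, IFITM2, was lower in the HT-29-labelled libraries than in MCF10A. No value is given for APOBEC3G, which reached the filter on low values in neither of these lines. The adjusted p from treat was 0.0955 for APOBEC3C and 0.805 for IFITM1. APOBEC3F had 0.631 for HT-29 over MDA-MB-436 in that test. IFITM1 over MCF10A was 0.94 with a pseudocount of 5 and 0.98 with TMM scaling for the HT-29-labelled libraries. Scaling by library totals moved the median of all genes by 0.31 for the HT-29-labelled libraries over MCF10A and by 0.33 for HT-29 over MDA-MB-436. Labels give no replicate numbers; a fit with labelled depth as a replicate block gave the same 5, 8 and 2 higher and 3, 1 and 6 lower. APOBEC3D in MCF10A, APOBEC3G outside the MDA-MB-436-labelled libraries and IFITM2 in the HT-29-labelled libraries rest on at most 24 reads.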

Other observations

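The flanking genes were listed to set their levels beside those of the restriction factors. Over all genes, 28.4% were higher and 18.1% lower in the HT-29-labelled libraries than in MCF10A, and 25.6% higher and 23.7% lower in the MDA-MB-436-labelled libraries. Of 8 tested beside the IFITM genes, 1 was higher and 4 lower in the HT-29-labelled libraries than in MCF10A, and 2 higher and 1 lower in the MDA-MB-436-labelled libraries. With libraries scaled by their totals, 2 were higher and 2 lower in the HT-29-labelled libraries. Beside the APOBEC3 genes, 4 of 9 were higher and 2 lower in the HT-29-labelled libraries than in MCF10A, and 3 higher in the MDA-MB-436-labelled libraries. Beside SAMHD1, 2 of 5 were lower in the HT-29-labelled libraries than in MCF10A, and 1 in the MDA-MB-436-labelled libraries. Both calls in the HT-29-labelled libraries, RBL1 and NDRG3, were lost with libraries scaled by their totals (-0.96 and -0.84), where DSN1 passed as higher (1.17). Beside BST2, none of 4 passed by limma, edgeR or DESeq2 in the HT-29-labelled libraries over MCF10A, though 3 were higher and 1 lower at an unadjusted p under 0.05 and 1 was higher with libraries scaled by their totals. All 4 were lower in the MDA-MB-436-labelled libraries than in MCF10A. ATHL1, on the IFITM2 side of that cluster, averaged 318 normalised counts in the HT-29-labelled libraries, 2360 in the MDA-MB-436-labelled libraries and 172 in MCF10A. It was higher in the MDA-MB-436-labelled libraries than in MCF10A (log2 fold change 3.77, limma adjusted p = 5.09e-09). B4GALNT4, on the IFITM3 side, averaged 887 in the HT-29-labelled libraries, 1.03 in the MDA-MB-436-labelled libraries and 2072 in MCF10A, and was lower in the MDA-MB-436-labelled libraries than in MCF10A (-10.21, adjusted p = 1.00e-06, resting on 1 read in the lower line). Its difference between the HT-29-labelled libraries and MCF10A (-1.22, adjusted p = 0.0444) did not pass without any 1 library of either line, with adjusted p between 0.138 and 0.165.

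CBX6 and CBX7, which flank the APOBEC3 cluster and encode Polycomb proteins, were higher in the HT-29-labelled libraries than in MCF10A, at log2 fold changes of 1.46 and 1.56. By limma they stood at 0.51 and 0.96 for the MDA-MB-436-labelled libraries over MCF10A, under the threshold. In that comparison APOBEC3B, APOBEC3C, APOBEC3D and APOBEC3F ran from -5.89 to 2.68. APOBEC3G is left out, as it passed the filter on low values through the MDA-MB-436-labelled libraries alone. For the MDA-MB-436-labelled libraries over MCF10A, CBX7 passed as higher by edgeR (1.008), DESeq2 (1.02) and limma-voom (1.015). It stood at 1.12 without the 25M MDA-MB-436-labelled library. Beside SAMHD1, DSN1 stood at -0.87 and RBL1 at -0.85 in the MDA-MB-436-labelled libraries over MCF10A, against 3.91 for SAMHD1. Beside BST2, PLVAP had at most 5 pooled reads in any line, and FAM125A was lower in the MDA-MB-436-labelled libraries than in MCF10A (-1.33, adjusted p = 2.18e-08).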
